A study of Mus musculus with 28 samples.

Results

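Heat shock protein and chaperone genes were followed in mouse ES cells (mESCs, E14 line) through every processed table that holds them. The 10 genes were taken by symbol and joined by gene identifier, namely *Hspa8*, *Hspa5*, *Hspa1b*, *Hsp90aa1*, *Hsp90ab1*, *Hspd1*, *Hspe1*, *Hsph1*, *Dnajb1*, and *Hsf1*, out of 15384 genes with a value per RNA-seq library. All 10 had a value in all 8 libraries and in the chromatin RNA table. Control mESCs received a scramble shRNA and *Ssrp1* KD mESCs a combination of 2 *Ssrp1* shRNAs, both from lentiviral vectors, and both were selected with puromycin (2 µg/ml) for 24 h from 48 h after transfection. SSRP1 and SUPT16 are the subunits of FACT, a histone chaperone that loosens and rebuilds nucleosomes in front of and behind polymerases. There were 4 control and 4 KD libraries of total RNA (the set with spike-ins), 2 libraries of chromatin-bound RNA from E14 cells, and 1 peak list for each FACT subunit. The authors' mean values over mESCs and early-stage NPCs (neural progenitors made from E14 embryoid bodies under retinoic acid) were also read.

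Chaperones bind unfolded proteins and keep them from aggregating. The HSP70 proteins (*Hspa8*, *Hspa1b*, and *Hspa5*) grip short exposed stretches and release them on ATP exchange. J-domain partners such as *Dnajb1* deliver the clients, and *Hsph1*, an HSP110 protein, exchanges the nucleotide. HSP90 (*Hsp90aa1* and *Hsp90ab1*) acts later, on kinases and receptors that are nearly folded. *Hspd1* and *Hspe1* form the barrel and the lid of the mitochondrial chaperonin, and *Hspa5* (BiP) serves the endoplasmic reticulum. *Hsf1* is the transcription factor that binds heat shock elements, inverted repeats of GAA, and induces many of these genes upon stress, whereas *Hspa5* answers mainly to the unfolded protein response through the ER stress element.

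The promoter windows below are shown because they hold these elements and belong to the genes with the largest fold changes and to one with a small fold change. They run from 250 bases before to 50 bases after an annotated transcript start (RefSeq, GRCm38.p6), and 6 of the 10 genes matched an entry, *Hspa5*, *Hspa1b*, *Hspd1*, *Hspe1*, *Hsph1*, and *Dnajb1*. Capitals mark the heat shock elements searched (GAANNTTC, TTCNNGAA, and their joined forms GAANNTTCNNGAA and TTCNNGAANNTTC) and the ER stress element (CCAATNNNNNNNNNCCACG, or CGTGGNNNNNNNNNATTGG on the other strand).
Hspa5, chr2:34771840-34772139, plus strand: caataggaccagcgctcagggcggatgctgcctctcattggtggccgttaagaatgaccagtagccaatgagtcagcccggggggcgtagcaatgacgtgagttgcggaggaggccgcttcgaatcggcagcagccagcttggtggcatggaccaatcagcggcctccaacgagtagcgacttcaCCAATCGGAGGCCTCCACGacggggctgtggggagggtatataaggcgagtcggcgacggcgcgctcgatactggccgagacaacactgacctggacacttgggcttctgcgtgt
Hspa1b, chr17:34959189-34959488, minus strand: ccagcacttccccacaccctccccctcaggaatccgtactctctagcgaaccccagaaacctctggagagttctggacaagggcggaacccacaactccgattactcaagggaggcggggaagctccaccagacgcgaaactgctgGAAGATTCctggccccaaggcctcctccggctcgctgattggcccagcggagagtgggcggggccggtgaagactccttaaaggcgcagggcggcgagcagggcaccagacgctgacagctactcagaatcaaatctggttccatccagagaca
Hspe1, chr1:55087898-55088197, plus strand: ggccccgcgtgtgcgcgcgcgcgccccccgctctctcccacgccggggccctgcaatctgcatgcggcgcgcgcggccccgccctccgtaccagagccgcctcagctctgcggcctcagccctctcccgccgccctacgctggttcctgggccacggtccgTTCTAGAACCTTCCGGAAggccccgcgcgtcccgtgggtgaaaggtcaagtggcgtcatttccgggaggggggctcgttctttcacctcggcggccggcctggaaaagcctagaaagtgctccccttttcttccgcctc
Hsph1, chr5:149636287-149636586, minus strand: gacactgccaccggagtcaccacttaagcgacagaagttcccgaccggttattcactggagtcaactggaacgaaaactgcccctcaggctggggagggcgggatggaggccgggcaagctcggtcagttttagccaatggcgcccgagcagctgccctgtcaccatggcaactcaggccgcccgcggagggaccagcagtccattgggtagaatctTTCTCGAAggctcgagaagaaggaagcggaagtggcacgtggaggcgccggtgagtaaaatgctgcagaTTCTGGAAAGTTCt

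Positions are counted from the start, which is base 0. The *Hspa5* window held the ER stress element at −65 to −47, a match found in 0.119% of 32851 promoters, and 4 matches to the CCAAT box (CCAAT or ATTGG), one of them inside that element. The *Hspa1b* window held 1 two-unit heat shock element (GAANNTTC), which 7.86% of promoters hold, at −104 to −97. The *Hspe1* window held a run of 4 units, read as 2 overlapping 3-unit elements between −89 and −72. A 3-unit element was found in 0.603% of promoters, and it holds the 2-unit forms within it (TTCNNGAA alone is in 8.52%). The same bases lie in a window of *Hspd1*, which is transcribed the opposite way, at −144 to −127 from its inner transcript start. In *Hsph1* a 3-unit element lay at 36 to 48, after the start, and a separate TTCNNGAA at −33 to −26. None of the searched elements was found in either *Dnajb1* window, apart from CCAAT. A match is a string of letters and was not tested for binding.

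The knock-down itself was seen in every library. *Ssrp1* had normalised read counts of 261, 230, 223, and 226 in control replicates 1 to 4 and of 24.1, 26.4, 24.9, and 28.9 in KD replicates 1 to 4 (log2 fold change −3.15, limma, adjusted p = 1.18e-22). The RNA of *Supt16*, the other subunit, was at 319 ± 22.02 in control and 504 ± 20.2 in KD (n = 4 each, log2 fold change 0.66, adjusted p = 5.24e-11, under the fold threshold). Control libraries held 4602278 to 6680919 reads and KD libraries 9433193 to 19856032, so depth separates the groups completely. Pluripotent markers (8 of 8 measured) summed to 1619–1738 in control and 4667–5154 in KD. Fibroblast markers (5 of 7) summed to 58.5–76.6 in control and 22.7–25.7 in KD, neural markers (5 of 7) to 83.7–107.4 and 144.5–155.5 (*Tubb3* went from 33.6 to 108 on average, while the mean was lower in KD for *Pax6*, *Sox1*, *Map2*, and *Nes*), and trophectoderm and keratinocyte markers (5 of 7) to 651.7–893.9 and 507.2–545.3. The part of depth and of these markers in the results that follow was not tested. In bulk RNA, a change in the cells present and a change in RNA per cell cannot be told apart.

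In control mESCs the heat shock genes spanned a wide range of expression per length. Per kb of exon, *Hspa8*, the constitutive HSP70, stood at 1097 ± 33.5 (normalised read count per kb, mean ± SD, n = 4), the 99.8th percentile of the genes. *Hsp90aa1* followed at 751 ± 51.0 and *Hsp90ab1* at 442 ± 29.2. *Hspe1* (230.1 ± 17.3), *Hspa5* (212 ± 11.3), and *Hspd1* (209 ± 10.8) came next and lay within their spread of each other. *Dnajb1* was at 64.8 ± 8.62 and *Hsph1* at 29.7 ± 2.94. *Hsf1* (13.96 ± 0.979) and the stress-inducible *Hspa1b* (13.3 ± 0.562) were lowest, at the 66.5th and 65.3rd percentile, and did not differ beyond their spread.

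The order of the most abundant members differed in the other tables. In the authors' mean log2 expression over their KD and control libraries, *Hsp90ab1* stood at 12.3, *Hsp90aa1* at 11.1, and *Hspa8* at 10.0. Over their NPC and mESC libraries (3 NPC libraries) the same genes stood at 12.0, 10.6, and 9.77. Set against length, these values put *Hsp90ab1* at the 99.92nd percentile of the first table and at the 99.97th of the second, above *Hspa8* at the 99.3rd and 99.4th. *Hspa1b* was at percentiles 47.1 and 37.9. These means cover both groups of each comparison, so no test was possible.

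**Figure D1:**
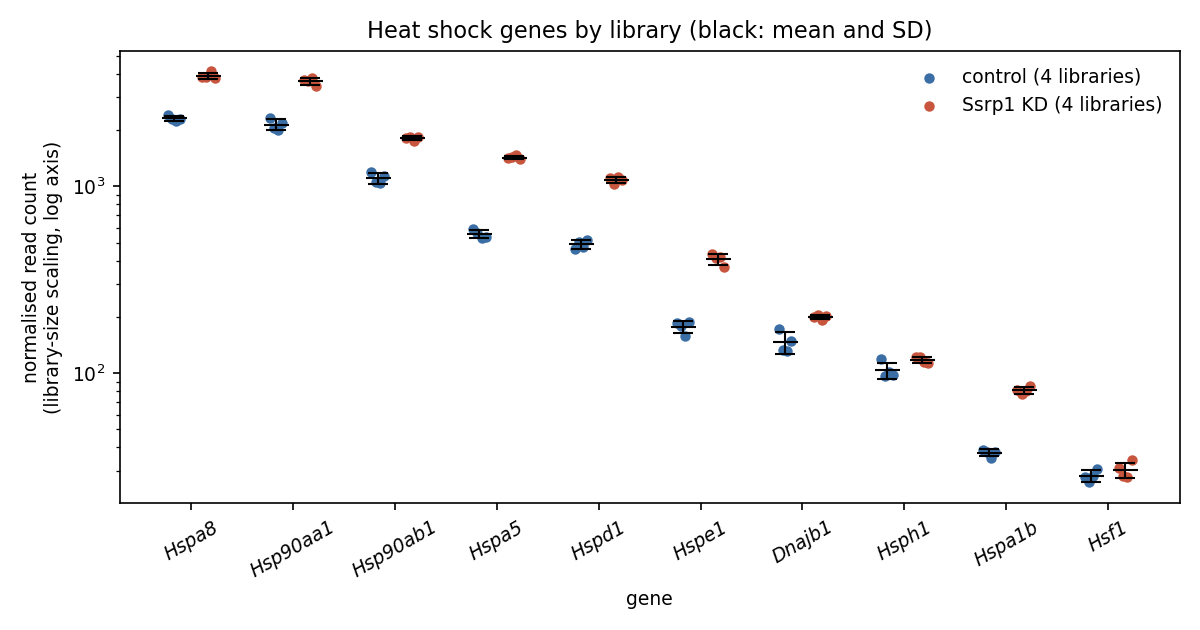
Normalised read count (library-size scaling, log axis) of the 10 heat shock genes in each of 4 control (blue) and 4 Ssrp1 KD (red) libraries, with the mean and SD in black. The KD libraries lie above every control library for 8 genes, while Hsph1 and Hsf1 overlap.

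The effect of SSRP1 depletion on the chaperone system was then examined gene by gene. Of the 10 heat shock genes, 4 were higher in KD by limma (log2 of value + 0.5), where a call needed a log2 fold change beyond 1 together with p under 0.01 after Benjamini-Hochberg adjustment over all 15384 genes. They were *Hspa5*, *Hspe1*, *Hspd1*, and *Hspa1b*. Of all genes, 8.07% were higher by that rule and 20.6% lower, 28.6% in all. With library-size scaling none of the 10 was lower by limma, edgeR, or DESeq2, and 0 were lower at an unadjusted p under 0.05. The median log2 fold change was 0.77 over the 10 genes and −0.03 over all genes. High expression moved with this: 7 of the 10 lie among the 1539 genes of highest control value (10% of the table), where 16% were called higher, 3.18% lower, and the median was 0.45.

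With library-size scaling, the endoplasmic and mitochondrial chaperones had the highest log2 fold changes (with quantile scaling *Hspa1b*, 0.86, was highest, and with the exon length correction *Hspe1*, 0.89, lay below the HSP90 genes and *Hspa8*). *Hspa5* had normalised read counts of 593, 564, 528, and 536 in control replicates 1 to 4 and of 1412, 1433, 1466, and 1394 in KD replicates 1 to 4. Every KD library lay above every control library, and the spread within a group was small. The log2 fold change was 1.36 ± 0.059 (SE, adjusted p = 3.13e-17, limma), the largest of the 10, in the 97.2nd percentile of all genes. *Hspd1*, the chaperonin barrel, read 463, 503, 472, and 516 in control and 1105, 1032, 1118, and 1077 in KD. Its groups were also apart, and it rose by 1.15 ± 0.058 (adjusted p = 6.92e-16). *Hspe1*, the lid of the same machine, read 184, 178, 158, and 187 in control and 432, 412, 419, and 368 in KD. The lowest KD library stood well above the highest control library, and the log2 fold change was 1.20 ± 0.062 (adjusted p = 9.39e-16).

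*Hspa1b*, an inducible HSP70, was the last of the 4. It had normalised read counts of 38.8, 38.0, 35.2, and 37.7 in control and 80.8, 77.7, 79.8, and 85.5 in KD, again without overlap. The log2 fold change was 1.10 ± 0.067 (adjusted p = 2.58e-14). Its neighbour *Hspa1a*, with 99.5% identical coding bases, went from 32.7 ± 1.35 to 55.0 ± 3.21 (n = 4 each), a log2 fold change of 0.74 ± 0.073 (adjusted p = 5.43e-10), which is under the fold threshold. Of the 50-base windows of the *Hspa1b* transcript, 62.2% also occur in *Hspa1a*, so reads may be split between these copies and both values are uncertain. Between *Hsp90aa1* and *Hsp90ab1*, with 76.3% identity in coding bases, no such window was shared.

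The most abundant cytosolic chaperones passed the adjusted p but stayed under the fold threshold. *Hspa8* had normalised read counts of 2410.3, 2292, 2246, and 2288 in control and 3845, 3858, 4128, and 3819 in KD. The groups were apart, with KD replicate 3 the highest, and the log2 fold change was 0.76 ± 0.075 (adjusted p = 5.57e-10). *Hsp90aa1* read 2323, 2059, 1995, and 2186 in control and 3726, 3662, 3810.4, and 3424 in KD, a log2 fold change of 0.77 ± 0.077 (adjusted p = 6.71e-10). *Hsp90ab1* read 1199, 1059, 1039, and 1134 in control and 1818, 1842, 1755, and 1840.2 in KD, a log2 fold change of 0.71 ± 0.065 (adjusted p = 1.27e-10). Neither HSP90 gene overlapped between groups. With library-size scaling *Hspa8* alone gained more normalised reads than *Hspa5* and *Hspe1* have together in control. Table totals under this scaling were on average 1.348 times as large in KD as in control, and the comparison depends on this scaling.

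The co-chaperones and the factor had the smallest differences. *Dnajb1* had normalised read counts of 173, 133, 131, and 149 in control and 199, 204, 192, and 203 in KD. The groups did not overlap, although control replicate 1 came near the KD range, and the log2 fold change was 0.45 ± 0.069 (adjusted p = 1.11e-06). *Hsph1* read 119, 96.6, 101, and 97.9 in control and 122, 121, 114, and 114 in KD. Control replicate 1 lay above 2 KD libraries, and the log2 fold change was 0.19 ± 0.065 (adjusted p = 0.00822). *Hsf1* read 27.8, 26.0, 28.2, and 30.8 in control and 30.9, 28.1, 27.8, and 34.1 in KD. These groups overlapped, and the difference of 0.10 (95% interval −0.08 to 0.28) did not pass (adjusted p = 0.31). On the adjusted p alone 9 of the 10 were higher with library-size scaling (7 higher and 2 lower with table total scaling, 6 higher and 1 lower with quantile scaling), against 35.4% of all genes (37.3% were lower) and 68% of the 1539 genes of highest control value (16.9% lower). The groups did not overlap in 8 of the 10, with KD above, against 35.8% of all genes and 37.5% with KD below. Without single libraries, 8 or 9 passed the adjusted p, and the same 4 kept their call each time.

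The direction for some members depended on how libraries were scaled. TMM and DESeq2 size factors gave the values above within 0.03 and the same 4 calls. The paper names TMM for its own counts, so the agreement with TMM is no separate check. With the deposited spike-in scaling all 10 were called higher, as were 48.1% of all genes. Log2 fold changes ran from 1.11 (*Hsf1*) to 2.39 (*Hspa5*), while the median of all genes moved to 0.95. The factor from library-size to spike-in values was 0.598 to 0.895 in control libraries and 0.921 to 1.85 in KD libraries. Table totals under library-size scaling were on average 1.348 times as large in KD as in control. When each library was divided by the total of its table, the median of all genes was −0.45 and none of the 10 was called. *Hspa5* then stood at 0.93, *Hspe1* at 0.77, *Hspd1* at 0.72, and *Hspa1b* at 0.68, whereas *Hsph1* (−0.24, adjusted p = 0.000446, limma) and *Hsf1* (−0.33, adjusted p = 0.0025) turned negative and passed the adjusted p. Quantile scaling also gave no call and turned *Hsp90ab1* (−0.25), *Hsph1* (−0.16), and *Dnajb1* (−0.02) negative, of which *Hsp90ab1* passed the adjusted p (1.64e-05, limma). A correction for exon length put *Hsp90aa1* (1.03) above the fold threshold and *Hspe1* (0.89), the gene with the shortest transcript, below it.

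**Figure D2:**
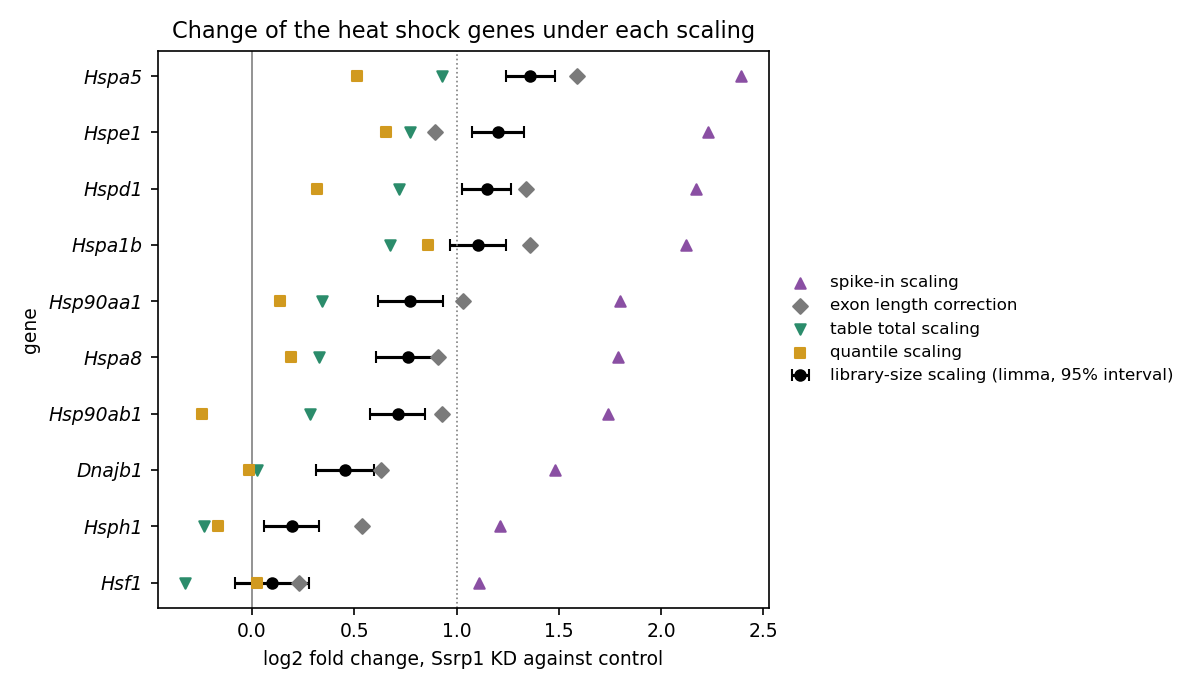
Log2 fold change of each heat shock gene, Ssrp1 KD against control, with its 95% interval (black, library-size scaling, 4 libraries a group) and under 4 other treatments of the values (coloured symbols). The dotted line is the fold threshold of 1; spike-in values lie to the right of it for all 10 genes, and quantile and table total values to the left.

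Ratios between members within a library cancel a scaling factor of that library, but not a correction for exon length or quantile scaling. With this limit 6 pairs are given. They were picked after the values above had been seen, and so are a description without a test. The ratio of *Hspa5* to *Hspa8* was 0.246, 0.246, 0.235, and 0.234 in control and 0.367, 0.371, 0.355, and 0.365 in KD. No library of one group reached the other, and the shift was 0.60 in log2. Relative to *Hspa8*, both co-chaperones were lower in KD, *Hsph1* with ratios of 0.0447 ± 0.00318 and 0.0302 ± 0.00188 (log2 difference −0.57) and *Dnajb1* with 0.0634 ± 0.00658 and 0.0511 ± 0.00309 (−0.31, n = 4 each). The ratio of *Hspa1b* to *Hspa1a* was 1.15 ± 0.0414 in control and 1.47 ± 0.0429 in KD, subject to the shared windows noted above.

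For the mitochondrial chaperonin and for cytosolic HSP90 the ratios overlapped between the groups. *Hspd1* to *Hspe1* was 2.77 ± 0.202 in control and 2.66 ± 0.186 in KD (n = 4 each, log2 difference −0.06). This closeness depends on transcript length. With the exon length correction the log2 fold changes were 1.34 for *Hspd1* and 0.89 for *Hspe1*. *Hsp90aa1* to *Hsp90ab1* was 1.93 ± 0.0108 in control and 2.02 ± 0.129 in KD (log2 difference 0.06). Together the 10 genes took 0.822% ± 0.00575 of the reads of the table in control libraries and 1.095% ± 0.00992 in KD libraries (n = 4 each), with no overlap.

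Within groups, members varied together to different degrees. The deviations of log2 values from the group means over the 8 libraries correlated most for *Hsp90ab1* and *Dnajb1* (Pearson r = 0.983), followed by *Hsp90aa1* and *Hspe1* (0.838) and by *Hspa8* and *Hspa5* (0.813). They ran opposite for *Hspd1* and *Hsph1* (−0.677). For *Hspd1* and *Hspe1*, r was 0.351. Over 10765 genes with a mean value of at least 10, the closest to *Hspa8* in this sense were *Zfp644* (0.983), *Mysm1* (0.976), and *Asns* (0.973). The closest to *Hspa1b* were *Gm4425* (0.974), *Gorasp2* (0.971), and *Bms1* (0.968), and to *Hsph1* *Gatad2b* (0.983), *Rhoq* (0.976), and *Itgb5* (0.973). With 8 libraries that share depth and scaling factors, these are descriptions only.

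The wider chaperone network was described with 10 lists holding 119 genes, of which 114 were measured. In all, 25 were called higher and 10 lower, where 8.07% of all genes were higher and 20.6% lower (16% and 3.18% of the 1539 genes of highest control value). Their median log2 fold change was 0.63. With spike-in scaling, 48.1% of all genes were called higher and 7.03% lower. The HSP90 family with its co-chaperones was the most uniform. All 16 genes were higher at the adjusted p (35.4% of all genes, 68% of the 1539 of highest control value), 7 of them above the fold threshold (0 with table total, 2 with quantile, and 16 with spike-in scaling), with a median of 0.96 (0.53 with table total scaling, where 16 of 16 stayed positive, and 0.51 with quantile scaling, where 14 did). Among the 7 were *Fkbp5*, a peptidyl-prolyl isomerase that escorts steroid receptors (52.4 ± 2.43 to 139.7 ± 8.28, log2 fold change 1.41, adjusted p = 4.79e-17), its relative *Fkbp4* (445 ± 20.6 to 1118 ± 17.7, 1.33, adjusted p = 2.09e-17), and *Ahsa1*, the activator of the HSP90 ATPase (172 ± 7.64 to 403 ± 13.4, 1.22, adjusted p = 4.32e-17), by limma with n = 4 a group. The median of the list without *Hsp90aa1* and *Hsp90ab1* was 1.01.

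Chaperonin and organelle lists also had positive medians with library-size scaling. Of all genes, 8.07% were called higher and 35.4% were higher at the adjusted p. In the 1539 genes of highest control value these shares were 16% and 68%. Of 14 TRiC and prefoldin genes, which fold actin and tubulin, 7 were called higher (1 with table total, 1 with quantile, and 14 with spike-in scaling), 0 lower (0 at an unadjusted p under 0.05 and 0 by edgeR or DESeq2), and the median was 1.00 (0.57 with table total and 0.37 with quantile scaling, with 13 and 12 genes positive). Its largest rises were in the ring subunits *Cct6a* (1.48) and *Tcp1* (1.40). All 13 mitochondrial chaperones and proteases were higher at the adjusted p, and 4 were called (0 with table total and 2 with quantile scaling), while 10 were positive with table total or quantile scaling. Beside *Hspd1* and *Hspe1* these were the protease *Lonp1* (136 ± 8.25 to 360 ± 10.3, log2 fold change 1.40) and the import factor *Dnajc19* (1.20). In the endoplasmic reticulum and unfolded protein response list, 4 of 20 were called higher and 0 lower, with 2 lower at an unadjusted p under 0.05 and 0 lower by edgeR or DESeq2. The 4 were *Hspa5*, the J-protein partner *Sdf2l1* (1.23), the transcription factor *Xbp1* (1.17), and *Pdia6*, named after its value was seen. With table total scaling 0 were called higher and 2 lower, and with quantile scaling 1 was called higher. The list's median was 0.39, and it was −0.04 with table total scaling and 0.01 with quantile scaling. *Hspa5* had the highest fold change of this list.

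The HSP70 and J-domain families held calls in both directions, with medians of 0.52 and 0.31 (0.09 and −0.12 with table total scaling). Of all genes, 8.07% were called higher and 20.6% lower. Of 15 HSP70 and HSP110 genes 2 were called higher, both of them members described above, and 2 lower, the divergent *Hspa12b* (9.58 ± 3.04 to 2.64 ± 0.574, log2 fold change −1.65) and *Hspa12a* (−1.03). Of 24 J-domain genes 3 were called higher, among them *Dnajc8* (89.6 ± 3.55 to 272 ± 10.1, 1.60) and *Dnajc21* (1.31), and 3 lower, among them *Dnaja4* (9.51 ± 1.05 to 2.69 ± 0.828, −1.68) and *Dnajb2* (−1.24). No nucleotide exchange factor of 11 was called by limma, with 7 higher and 3 lower at an unadjusted p under 0.05, 0 called by edgeR, and 1 called higher by DESeq2. Their median was 0.55 (0.12 with table total scaling).

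Small heat shock proteins hold unfolded clients without ATP. Of 7 measured, 4 were called lower (20.6% of all genes were) and 0 higher (1 higher at an unadjusted p under 0.05, 0 by edgeR or DESeq2), with a median of −1.09 (−1.44 with table total, −0.50 with quantile, and −0.22 with spike-in scaling). The calls were the same in number with table total scaling but moved to 2 lower and 1 higher with quantile and to 1 lower and 2 higher with spike-in scaling. The largest falls were in *Hspb7* (6.30 ± 2.67 to 0.832 ± 0.392, log2 fold change −2.30) and *Hspb2* (17.9 ± 3.88 to 5.14 ± 0.213, −1.68). Both are genes of muscle, and their levels were low. The abundant *Hspb1* stood at 357 ± 23.3 and 479 ± 11.1 (0.42, under the fold threshold), and was named after its values were seen. Of 4 heat shock factors and regulators, *Hsf5* was called lower (6.67 ± 0.812 to 1.40 ± 0.311, −1.92) and 0 were higher (1 at an unadjusted p under 0.05, 0 by edgeR or DESeq2). Of 19 genes known as inducible targets of *Hsf1*, 5 were called higher and 1 lower. Of all genes 8.07% were called higher, and 16% of the 1539 genes of highest control value. The median of the 19 was 0.76 (0.33 with table total and 0.19 with quantile scaling). Of the 19, 7 are members, and among the 12 others 2 were called higher and 1 lower. *Bag3*, a classical target with 13.2 ± 1.74 in control and 10.3 ± 1.38 in KD, had an adjusted p of 0.021 with overlapping groups and was singled out after its values were seen.

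**Figure D3:**
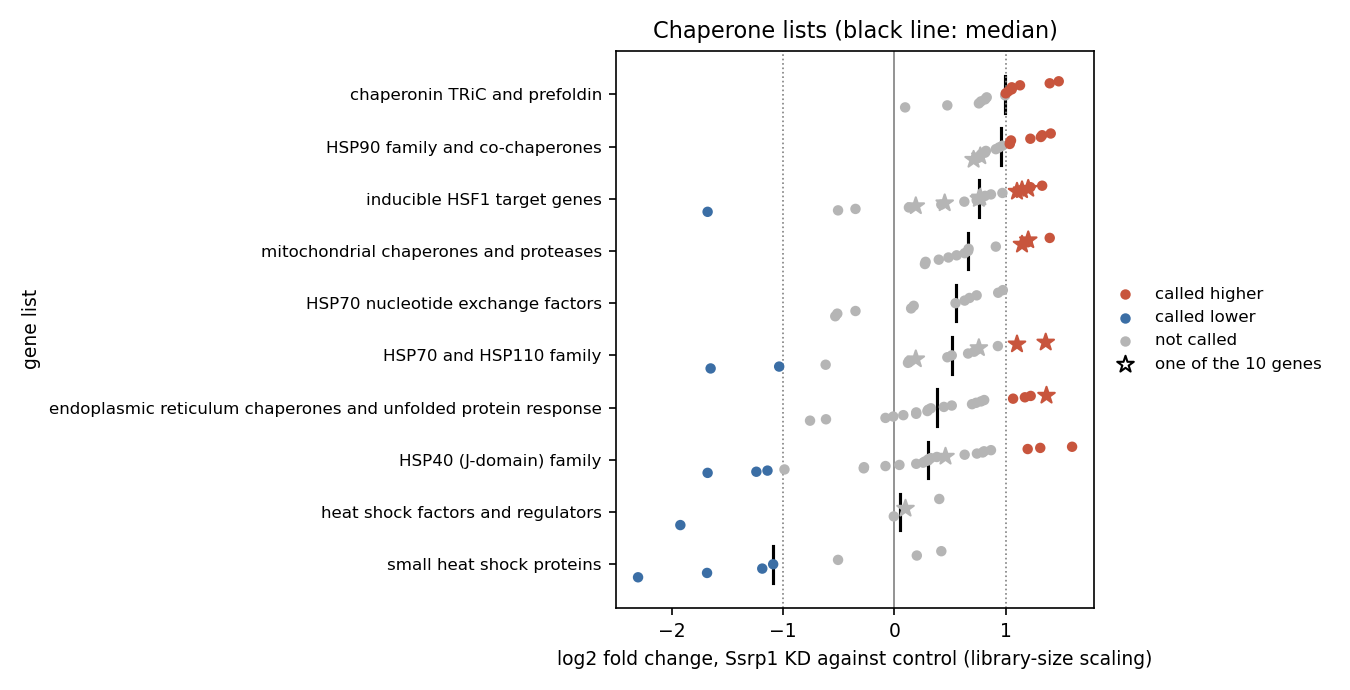
Log2 fold change of each measured gene of 10 chaperone lists, Ssrp1 KD against control (library-size scaling, 4 libraries a group), coloured by call, with members as stars and the list median as a black line. Medians lie between −1.09 for small heat shock proteins and 1.00 for TRiC and prefoldin.

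Whether FACT occupies these genes in mESCs was read from the peak lists. By the nearest-gene assignment 9 of the 10 carried a SSRP1 peak, all but *Hsf1*, and 5 carried a SUPT16 peak, namely *Hspa8*, *Hsp90aa1*, *Hsp90ab1*, *Dnajb1*, and *Hsf1*. Of all genes with RNA values, 36.0% had a SSRP1 peak and 18.6% a SUPT16 peak, and in the 1539 genes of highest control value these shares were 56.5% and 37.4%. Within 1000 bp of the gene start the counts were 7 and 4, against 23.9% and 13.9% of all genes. In the 1539 genes of highest control value these shares were 41.4% and 27.0%. *Hspd1* and *Hspe1* share a promoter, and the same 2 SSRP1 peaks lie within 1000 bp of both starts. There is 1 list for each subunit with no peak heights, so neither replicates nor strength of binding could be compared, and no test was made.

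The occupancy fell into separate patterns. At *Hspa8* (chr9:40801276-40805202, plus strand, 9 exons) 3 SSRP1 peaks of 588, 3038, and 1960 bp covered the start, most of the gene body, and a stretch beyond its end, and 72.5% of the gene lay under them. The 4 SUPT16 peaks there overlapped all 3. *Hsp90ab1* (chr17:45567778-45573261, minus strand) had SSRP1 peaks of 3038 and 3430 bp over 76.8% of the gene and SUPT16 peaks of 1610 and 4410 bp over 73.7%. For both subunits the longer peak ran past the 3′ end. In summed SUPT16 peak length, *Hsp90ab1* was at the 99.95th percentile of all genes, *Hspa8* at the 99.8th, and *Hsp90aa1* at the 99.54th.

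At *Hsp90aa1* (chr12:110691036-110696395, minus strand) a SSRP1 peak of 1764 bp and a SUPT16 peak of 980 bp sat over the start, while the longest peaks, of 2646 and 1820 bp, lay wholly beyond the 3′ end, where they began 5787 and 6585 bases after the gene start. Only 22% of the gene itself was covered by SSRP1. At *Dnajb1* (chr8:83608175-83612653, plus strand) a SSRP1 peak of 588 bp began 35 bases after the start, 92.5% of it exonic, inside a SUPT16 peak of 1120 bp. Of the SUPT16 peak bases, 93.5% at *Hspa8*, 93% at *Hsp90aa1*, 83.7% at *Hsp90ab1*, and 52.5% at *Dnajb1* were also under a SSRP1 peak. As a share of the SSRP1 peak bases, the overlap was 76.2%, 59.5%, 77.9%, and 50%.

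The 4 genes called higher had 1 assigned SSRP1 peak each, of 294 to 588 bp, and no assigned SUPT16 peak, as had *Hsph1*. (A SUPT16 peak assigned to another gene lies within 5 kb of *Hspa1b*.) *Hspa5* (chr2:34772090-34776529, plus strand) had 1 SSRP1 peak of 294 bp inside the gene, 2426 bases from the start, 80.6% of it coding, and none over the promoter printed above. *Hspa1b* (chr17:34956429-34959238, minus strand, 1 exon) had 1 of 588 bp that spanned its start and covered all 300 bases of the printed window. The *Hspd1* and *Hspe1* starts face away from each other, 216 bases apart for one *Hspd1* transcript, and overlapping by 95 bases for the other. SSRP1 peaks of 490 and 294 bp flanked this shared promoter on either side, with 0 of the 300 bases of the *Hspe1* window and of the inner *Hspd1* window under a peak, and 243 of the 300 bases of the outer *Hspd1* window. At *Hsph1* the one SSRP1 peak, of 588 bp, lay upstream, at −4896 to −4308 from the gene start. *Hsf1* had a single SUPT16 peak of 210 bp in an intron, 2888 bases from its start. Both subunits had an assigned peak at 4 of the 10, against 12.7% of all genes and 31.3% of the 1539 genes of highest control value. None of these 4 was called higher in KD and 4 of the 6 others were (1 and 3 with the exon length correction), which was not tested. On the adjusted p alone these 4 were higher as well. With spike-in scaling all 10 members were called higher, and with quantile or table total scaling 0 were, so the contrast depends on the fold threshold and the scaling.

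**Figure D4:**
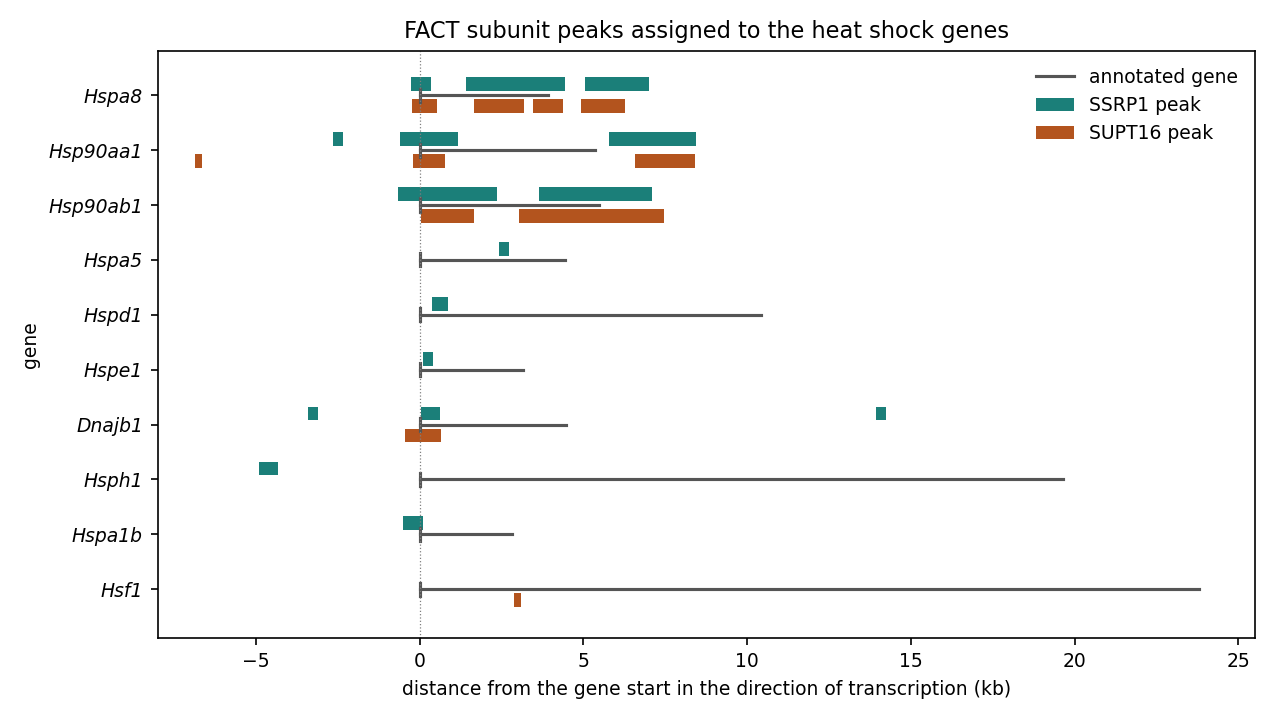
SSRP1 (green) and SUPT16 (brown) peaks assigned to each heat shock gene, by distance in kb from the annotated gene start in the direction of transcription (vertical tick), with the gene as a grey line. Long peaks of both subunits run over Hspa8 and Hsp90ab1, and Hspa5, Hspd1, Hspe1, Hsph1, and Hspa1b have 1 SSRP1 peak each.

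Chromatin-bound RNA was then read for the same genes. The 2 libraries held 3441643 and 3393923 counts, of which 79.4% and 75.0% fell on snoRNA, rRNA, and snRNA genes and 5.56% and 9.35% on protein-coding genes. The 10 members had 1005 and 1230 counts. *Hsp90ab1* led with 457 counts (exact Poisson 95% interval 416 to 501, which covers counting error only, as do the others) and 521 (477 to 568). *Hsp90aa1* had 231 (202 to 263) and 222 (194 to 253), and *Hspa5* had 118 (97.7 to 141) and 168 (144 to 195). As CPM over protein-coding genes and per kb, they stood at 804, 335, and 219 (mean of both libraries), at the 99.95th, 99.79th, and 99.53rd percentile of protein-coding genes.

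*Hspa8* was the highest per length in total RNA of the control libraries. In the authors' mean values set against length, *Hsp90ab1* and *Hsp90aa1* stood above *Hspa8*, as they did in chromatin RNA. By the mean of both libraries *Hspa8* took place 4 in chromatin RNA (5 in one and 3 in the other). *Hspa8* had 62 (47.5 to 79.5) and 141 (119 to 166) counts and a mean of 183 CPM per kb. Its introns hold 3 snoRNA genes, *Snord14c*, *Snord14d*, and *Snord14e* (chr9:40804748-40804838 for the last), which together had 33532 and 30085 counts, 541 and 213 times the counts of the host. *Hspe1* took place 4 in total RNA and place 7 in chromatin RNA (6 and 9 in the single libraries), with only 8 (3.45 to 15.8) and 5 (1.62 to 11.7) counts. *Hsph1* took place 8 in total RNA and place 6 in chromatin RNA (7 and 6), with 35 and 48 counts. *Hspd1* had 75 and 80 counts and *Dnajb1* 9 and 20.

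The lowest members were near the limit of this depth. *Hspa1b* had 7 counts (2.81 to 14.4) in each library and *Hspa1a* 3 and 1. *Hsf1* had 3 (0.619 to 8.77) and 18 (10.7 to 28.4), so that the intervals of the raw counts did not overlap, nor did those of *Hspa8* and *Hspa5*. Per protein-coding count, *Hspa8* stood at 154 and 211 CPM per kb in the 2 libraries and *Hsf1* at 7.77 and 28.1. *Hspa5* stood at 236 and 202 by this measure, lower in the second library, unlike its raw counts. Places below *Hsph1* rest on few counts. The 2 libraries form 1 group, and no test between chromatin and total RNA was made.

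**Figure D5:**
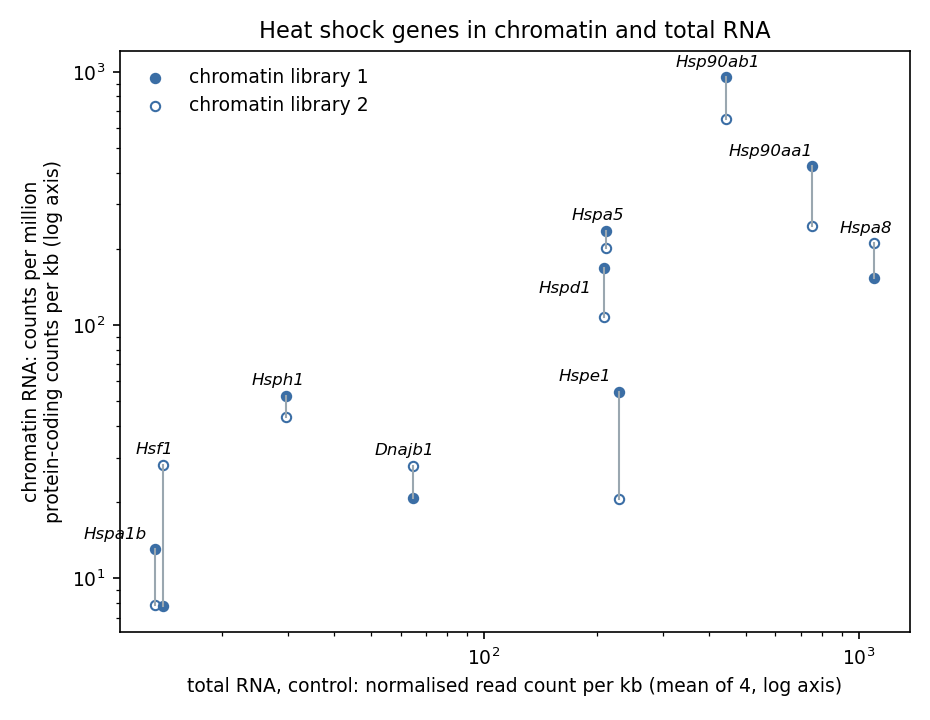
Chromatin RNA of each heat shock gene in both libraries (CPM over protein-coding genes per kb, log axis) against its total RNA in control mESCs (normalised read count per kb, mean of 4 libraries, log axis). Hsp90ab1 is highest in chromatin RNA, Hspa8 in the total RNA of these control libraries, and Hspe1 lies low in chromatin RNA for its total level.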

How the data were processed

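RNA-seq of 4 control and 4 *Ssrp1* KD libraries, both FACT peak lists, and 2 chromatin RNA libraries were used. The signal per gene was made by the authors with STAR (2.4.1b in the methods, 2.5.1b in the submitters' processing notes) on mm10, featureCounts, a filter on low counts, and a scaling to library size or to spike-ins. The methods name TMM beside library size. The mean sum of library-size values was 1.348 times as large in KD as in control libraries, so these values are not shares of the table total. From the steps between values 100% came out as whole reads (tolerance 0.1), which gave the depths and the reads for edgeR and DESeq2. Chromatin RNA is a raw count deposited by the authors. The log2 average expression deposited by the authors was used as their mean, and their fold changes and p-values were not used, nor was the table of exon usage. For each subunit PePr was run by the authors on both replicates together, after Bowtie2 2.2.6 on mm10, and each peak went to its nearest gene.

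The test was limma 3.58.1 with a mean-variance trend (R 4.3.3) on log2(library-size value + 0.5), Benjamini-Hochberg over 15384 genes, at a log2 fold change beyond 1 and an adjusted p below 0.01. No low-value filter was added. Alternatives were pseudocounts of 0.1 and 2, a filter of 5 in 4 libraries, other scalings, edgeR 4.0.16, DESeq2 1.42.0, no trend, a loess correction for exon length, leaving out each library, and a replicate block. Division by the table total was added after seeing the data. Tested on simulated data (200 of 15384 genes changed by 2 in log2), all 3 tools recovered 100% with 0 false calls. The simulated rises and falls were equal in number, so this did not test the choice of scaling, on which the calls here depend. Python 3.11.15, scipy 1.17.1, and GRCm38.p6 annotation were used, and gene symbols were matched for 15241 genes. Replicates were 4 biological replicates per the methods. No library duplicated another.

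The members and gene lists were chosen with earlier results of these data known. The genes named are all members, *Ssrp1*, *Supt16*, *Hspa1a*, the markers, up to 2 called genes with the largest rise and 2 with the largest fall in each list, and the 3 genes closest to *Hspa8*, *Hspa1b*, and *Hsph1*. *Pdia6*, *Bag3*, *Hspb1*, and the Snord14 genes of *Hspa8* fall outside this rule and were named after their values were seen.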

Additional observations from a re-analysis of the deposited data

Results flagged for a closer look

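One of 22 groups of 4 libraries tested for a value far from the others stood out. In *Hspa8*, KD replicate 3 (normalised read count 4127.7) was the highest, and its gap to the next library made up 0.873 of the range of the group. Chance marks about 1 in 20 groups. Without this library the 4 calls were the same.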

How the results depend on the processing

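The count of 4 heat shock genes called higher was the same with other pseudocounts, the filter, TMM or size factor scaling, edgeR, DESeq2, no trend, the exon length correction (with *Hsp90aa1* in place of *Hspe1*), and without any single library (4 to 4). It was 9 on the adjusted p alone, 10 with spike-in scaling (where 48.1% of all genes were called higher), and 0 with quantile or table total scaling. None was called lower under any of these. The paper names TMM, which edgeR also applied here, so agreement with either is no separate check of the scaling. The 35 chaperone list genes called (25 higher, 10 lower) became 99 (81 and 18) on the adjusted p alone, 95 (93 and 2) with spike-in scaling, 14 (10 and 4) with quantile scaling, and 16 with table total scaling (2 higher). Negative log2 fold changes arose with quantile scaling for *Hsp90ab1* (−0.25), *Hsph1* (−0.16), and *Dnajb1* (−0.016), and with table total scaling for *Hsph1* (−0.24) and *Hsf1* (−0.33). The cause was not tested. Same-numbered control and KD libraries did not deviate together (r = 0.0441, 0.0356, −0.0573, and −0.0502). This gave no sign of pairing but cannot settle whether the numbers pair the samples. With the replicate block 4 members and 4405 genes were called, as without it. Over all genes, 8476 were called with spike-in scaling, against 4405. Peak counts moved from 9 to 7 and 6 for SSRP1 and from 5 to 4 for SUPT16, within 1000 bp of the gene start and for peaks of at least 500 bp. The median chromatin RNA level (log2 of CPM over protein-coding genes per kb) was 6.35, with 6.52 and 6.10 in the single libraries and 7.86 without division by length. Depth limits the chromatin values of *Hspa1b*, *Hspe1*, and *Hsf1*, which rest on 3 to 18 counts.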
